A study of Homo sapiens with 18 samples.

Results

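The genes described here are the transcription factor MITF and 9 further factors of the melanocyte lineage and of the MITF family: SOX10, SOX9, PAX3, TFEB, TFE3, TFEC, LEF1, TFAP2A and SOX5. They were chosen by name as lineage factors, with earlier results of these data known, and they are 10 of the 63677 genes listed. Poly(A) RNA was sequenced from WM989, an established human melanoma cell line, after 7 days in EPZ5676 at 4 µM, which blocks the histone methyltransferase DOT1L, or in the solvent DMSO. For each treatment there were 3 libraries of cells with high NGFR and EGFR (high cells), 3 of cells with low NGFR and EGFR (low cells) and 3 of the unselected population (bulk cells), so 18 libraries in 6 groups. All groups are the same line in the same low-serum medium, and the labels do not say that replicates were separate cultures, so p-values measure the spread between these libraries and may be technical.

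MITF is the basic helix-loop-helix leucine zipper factor that directs melanocyte identity, binding E-box and M-box sequences in pigment, survival and cell cycle genes. SOX10 and PAX3 activate it in neural crest cells and melanocytes, and LEF1, the nuclear partner of beta-catenin, does so downstream of WNT. SOX9 is a close relative of SOX10 that is better known from cartilage and from neural crest induction, and low SOX10 with raised SOX9 is a known feature of dedifferentiated melanoma cells. TFEB, TFE3 and TFEC are the paralogs of MITF, and TFEB and TFE3 drive genes of lysosomes and autophagy. TFAP2A works beside MITF on pigment genes, and SOX5 has been described as a factor that holds SOX10 activity back in melanocytes.

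Gene counts summed to between 13383741 and 26311674 in a library. Levels are given as CPM, counts per 1000000 of a library scaled with TMM factors and not divided by gene length, and differences are log2 fold changes ± SE from edgeR's quasi-likelihood test, fitted to all 18 libraries and adjusted by Benjamini-Hochberg over the 18121 genes that passed the filter on low counts. A gene is called where the adjusted p is under 0.05. NGFR, which with EGFR defines the high and low cells, ran from 645 to 768 CPM in EPZ5676 high cells and from 537 to 617 CPM in DMSO high cells, against 1.05 to 6.86 CPM in EPZ5676 low cells and 0.639 to 1.61 CPM in DMSO low cells. The solvent bulk library of replicate 1 stood apart from its group, with 220.3 CPM of NGFR where the lowest library of the group had 9.24. In 6 libraries (EPZ5676 bulk replicates 1 and 3, high replicates 1 and 2 and low replicate 1, and DMSO high replicate 3) reads on no annotated feature exceeded 16% of the total. Without these 6, EPZ5676 bulk cells keep only replicate 2 and EPZ5676 high cells only replicate 3. In bulk and in gated populations, a smaller number of cells of a type and less RNA in each cell cannot be told apart.

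Of the 10 genes, 9 passed the filter, and TFEC, the paralog of MITF with the narrowest known expression, did not. TFEC had 0 to 5 counts in any library, and its summed counts were 8 in EPZ5676 high, 3 in EPZ5676 low and 1 in EPZ5676 bulk cells, against 7 in DMSO high, 7 in DMSO low and 2 in DMSO bulk cells. Its ratio of high to low cells was 2.84 under EPZ5676 (exact 95% interval 0.683 to 16.6) and 1.21 under DMSO (0.362 to 4.05), both covering counting error only, so no difference was detectable at this depth. The other 9 genes split into 2 opposite blocks between high and low cells.

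High against low cells asks which of these factors set apart the NGFR and EGFR high population, within each treatment. In high cells MITF, SOX10, TFAP2A, LEF1 and SOX5 were lower and SOX9, PAX3 and TFE3 were higher, under EPZ5676 and under DMSO alike, and TFEB was lower under EPZ5676. Under EPZ5676, 3 of the 9 tested were called higher and 6 lower, against 48.9% of all genes tested called in either direction (25.8% higher, 23.1% lower). Under DMSO, 3 were called higher and 5 lower, against 56.3% of all genes (29.6% higher, 26.7% lower). The median log2 fold change of the 9 was -0.33 under EPZ5676, where that of all genes was 0.02, and -0.40 under DMSO, where that of all genes was 0.03. With so large a share of all genes called, that most of the factors differed is not in itself a result about them. The 3 libraries of high cells lay wholly outside the range of the 3 of low cells for all 9 genes in each treatment, as they did for 60.3% of all genes in each.

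**Figure D1:**
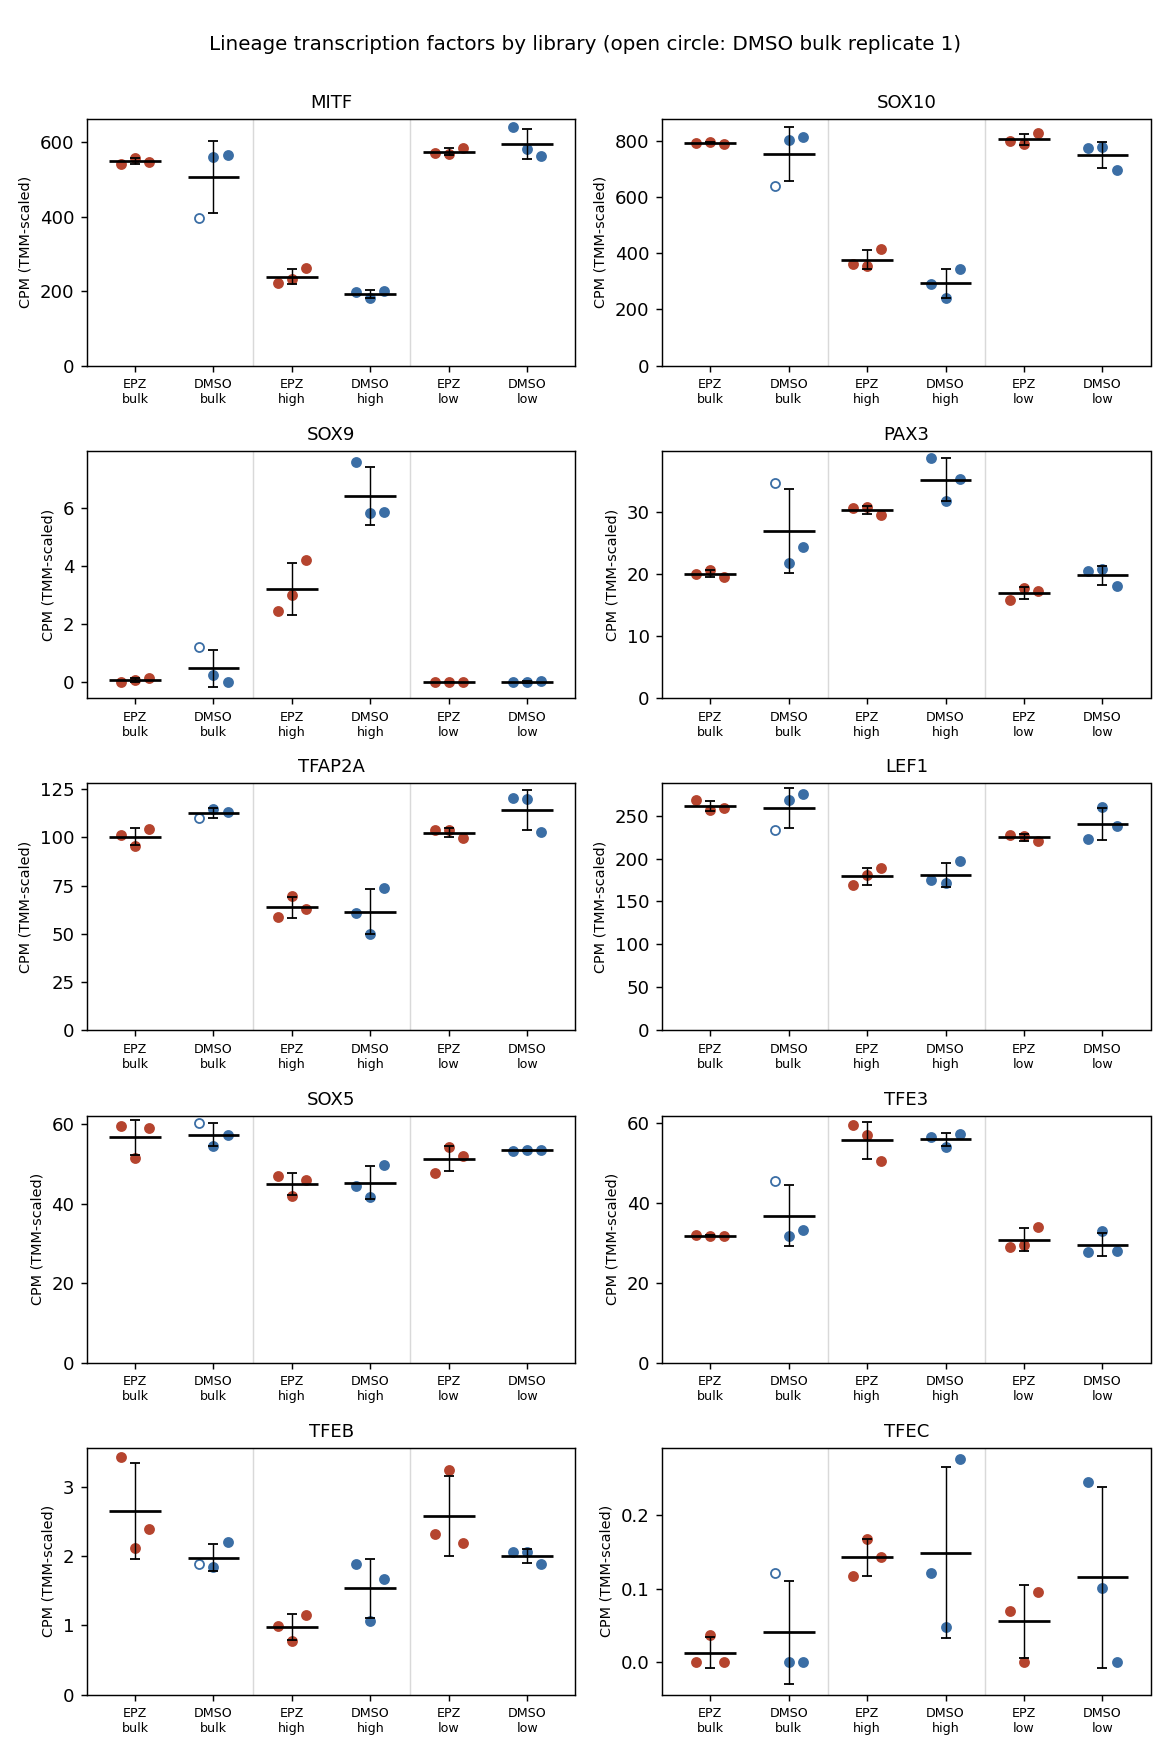
TMM-scaled CPM of the 10 factors in each of the 18 libraries (points), with the group mean (line) and SD (bar, n = 3). EPZ5676 groups (red) stand left of DMSO groups (blue) within bulk, high and low cells, and the open circle is DMSO bulk replicate 1. MITF and SOX10 sit low in all 6 high-cell libraries, and SOX9, PAX3 and TFE3 sit high there.

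MITF had 222, 234 and 261 CPM in EPZ5676 high cells, against 571, 569 and 585 CPM in EPZ5676 low cells. In DMSO it had 197, 181 and 202 CPM in high cells, against 641, 582 and 564.5 CPM in low cells. No library of high cells came near the range of low cells in either treatment. The difference was -1.27 ± 0.10 under EPZ5676 (adjusted p = 6.88e-08, edgeR) and -1.63 ± 0.10 under DMSO (adjusted p = 2.27e-09, edgeR), so high cells kept 0.416 and 0.324 of the low-cell level.

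SOX10, the neural crest factor that activates MITF, followed it closely. It had 361, 354.5 and 415 CPM in EPZ5676 high cells, against 800.2, 787.5 and 828 CPM in EPZ5676 low cells. DMSO high cells had 292, 242 and 345.5 CPM, against 773, 777 and 696 CPM in DMSO low cells. SOX10 thus remained among the detected lineage genes in every library of high cells, at 0.468 of the low-cell level under EPZ5676 (-1.09 ± 0.11, adjusted p = 7.69e-07, edgeR) and 0.391 under DMSO (-1.35 ± 0.11, adjusted p = 4.55e-08, edgeR). Exons of SOX10 overlap POLR2F, a polymerase subunit gene on the other strand with 92.2 CPM in EPZ5676 high, 170 CPM in EPZ5676 low, 87.3 CPM in DMSO high and 172 CPM in DMSO low cells. The strand setting of the counting is not given, so reads of the overlapping stretch cannot be told apart between the pair.

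SOX9 showed the opposite pattern and was close to undetected outside high cells. It had 42, 54 and 88 counts (2.46, 3.02 and 4.21 CPM) in EPZ5676 high cells, against 0 counts in each of the 3 EPZ5676 low libraries. In DMSO it had 125, 121 and 85 counts (7.59, 5.83 and 5.89 CPM) in high cells, against 0, 0 and 1 count in low cells. Set against 3 counts over the low group, which is what a count of 0 allows, SOX9 was at least 65.4-fold higher in EPZ5676 high cells. Under DMSO the ratio was 401 (exact 95% interval 71.4 to 15870, counting error only). Both differences were called (adjusted p = 4.86e-05 under EPZ5676 and 6.28e-06 under DMSO, edgeR).

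The ratio of SOX9 to SOX10 within a library was taken as log2(SOX9 CPM + 0.5) minus log2(SOX10 CPM + 0.5). Since neither level is per length, it is read between libraries only. It averaged -6.69 ± 0.24 in EPZ5676 high cells and -10.65 ± 0.04 in EPZ5676 low cells, and -5.40 ± 0.32 in DMSO high cells and -10.51 ± 0.16 in DMSO low cells (SD, n = 3 each). High cells exceeded low cells by 4.54 with treatments averaged (exact permutation test within treatment, two-sided, p = 0.005, the smallest that 400 permutations can give, adjusted p = 0.0085 over 2 tests). The other of the 2 tests is EPZ5676 against DMSO, read below as a value only. Its exact permutation p of 0.0085 set the adjusted p. With SOX9 at 0 or 1 count in low cells the size of this gap is set by the pseudocount, and it was 6.66 with 0.1 and 2.94 with 2. Within a treatment the gap was 3.97 under EPZ5676 and 5.11 under DMSO, each with an exact permutation p of 0.1, the smallest that 3 against 3 allows.

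**Figure D2:**
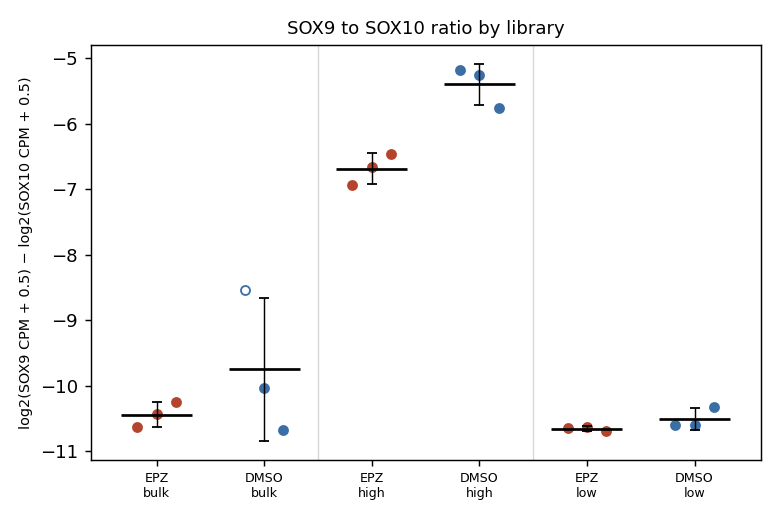
Log2 ratio of SOX9 to SOX10 CPM (pseudocount 0.5) in each library, with group mean (line) and SD (bar, n = 3), EPZ5676 groups in red left of DMSO groups in blue. The 6 high-cell libraries lie between -6.94 and -5.17 and the 6 low-cell libraries between -10.69 and -10.32; the open circle, DMSO bulk replicate 1, is at -8.54.

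PAX3, the paired box factor that acts with SOX10 on the MITF promoter, was higher where MITF and SOX10 were lower. It had 30.7, 30.9 and 29.6 CPM in EPZ5676 high cells, against 15.8, 17.8 and 17.3 CPM in EPZ5676 low cells. DMSO high cells had 38.8, 31.8 and 35.4 CPM, against 20.6, 20.9 and 18.1 CPM in DMSO low cells. No high-cell library reached down to the low-cell range. The differences of 0.84 ± 0.12 under EPZ5676 (adjusted p = 8.81e-06, edgeR) and 0.83 ± 0.12 under DMSO (adjusted p = 5.1e-06, edgeR) were nearly the same size.

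TFAP2A, a partner of MITF at pigment genes, was lower in high cells. It had 58.5, 69.6 and 62.9 CPM in EPZ5676 high cells, against 103.9, 103.8 and 99.6 CPM in EPZ5676 low cells (-0.69 ± 0.10, adjusted p = 1.27e-05, edgeR). DMSO high cells had 60.6, 50.1 and 73.5 CPM, against 120.3, 119.8 and 102.6 CPM in DMSO low cells (-0.90 ± 0.10, adjusted p = 3.4e-07, edgeR). The spread among DMSO high libraries was the widest of the 4 gated groups for this gene, and they still stayed below every low-cell library. Its antisense transcript TFAP2A-AS1, which overlaps it, had at most 0.952 CPM as a group mean.

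LEF1 and SOX5 differed by less. LEF1 had 169, 180.3 and 189 CPM in EPZ5676 high cells, against 228, 227 and 219.9 CPM in EPZ5676 low cells (-0.33 ± 0.07, adjusted p = 0.00045, edgeR). In DMSO it had 175, 171.5 and 197 CPM in high cells, against 223, 259.8 and 238 CPM in low cells (-0.41 ± 0.07, adjusted p = 2.87e-05, edgeR). The overlapping LEF1-AS1 stood at 6.23 to 8.44 CPM as group means. SOX5 had 46.9, 41.9 and 46.1 CPM in EPZ5676 high cells, against 47.9, 54.3 and 52.0 CPM in EPZ5676 low cells (-0.19 ± 0.08, adjusted p = 0.0376, edgeR). It had 44.5, 41.8 and 49.8 CPM in DMSO high cells, against 53.3, 53.6 and 53.5 CPM in DMSO low cells (-0.24 ± 0.08, adjusted p = 0.00961, edgeR). These are the smallest of the called differences. With any 1 library left out SOX5 stayed between -0.25 and -0.15 under EPZ5676 and between -0.31 and -0.18 under DMSO, while its call did not hold throughout. Under EPZ5676 it was not called without high replicate 2 (adjusted p = 0.172) or 3 (0.0546) or low replicate 2 (0.158) or 3 (0.0892), and under DMSO without high replicate 2 (adjusted p = 0.0623, edgeR). Without the 6 libraries with many reads on no feature, only replicate 3 of EPZ5676 high cells was left. LEF1 was then at -0.25 and SOX5 at -0.22 under EPZ5676, neither called.

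The paralogs of MITF did not move together. TFE3 had 59.4, 56.9 and 50.55 CPM in EPZ5676 high cells, against 28.9, 29.5 and 34.0 CPM in EPZ5676 low cells (0.85 ± 0.11, adjusted p = 1.89e-06, edgeR). It had 56.4, 54.0 and 57.2 CPM in DMSO high cells, against 27.7, 32.8 and 28.0 CPM in DMSO low cells (0.92 ± 0.11, adjusted p = 3.84e-07, edgeR). TFE3 in high cells was thus at 1.80 and 1.89 of its low-cell level, opposite in direction to MITF. TFEB was low throughout, with 14 to 79 counts in a library of gated cells. It had 0.994, 0.782 and 1.15 CPM in EPZ5676 high cells, against 2.31, 3.24 and 2.19 CPM in EPZ5676 low cells (-1.40 ± 0.27, adjusted p = 0.000177, edgeR). DMSO high cells had 1.88, 1.06 and 1.66 CPM, against 2.06, 2.06 and 1.89 CPM in DMSO low cells, which did not pass the test (-0.40 ± 0.26, adjusted p = 0.207, edgeR). The difference between these differences, -1.0 ± 0.38, did not pass either (adjusted p = 0.318, edgeR).

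**Figure D3:**
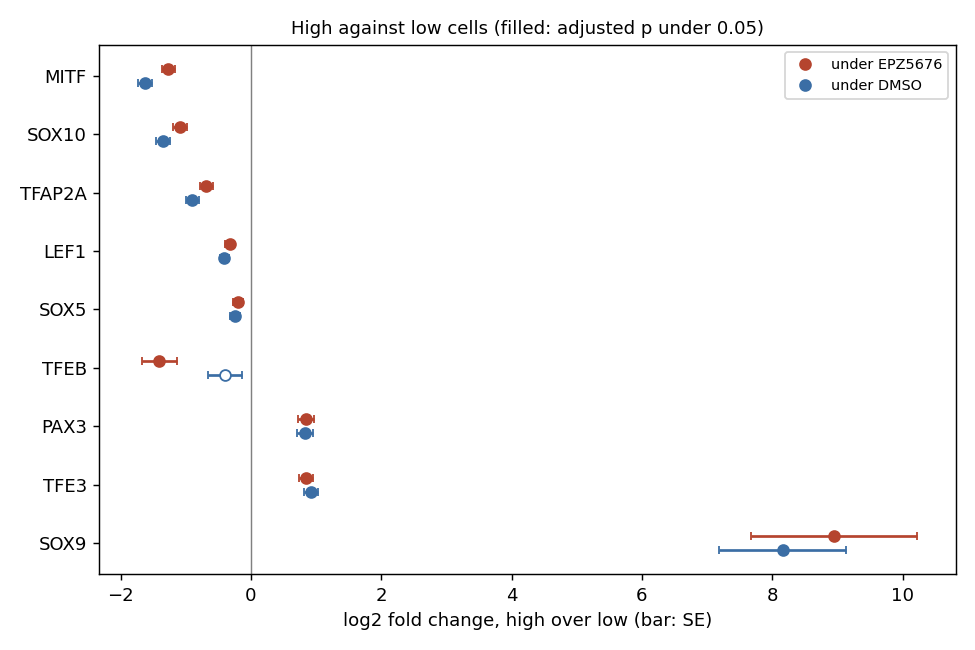
Log2 fold change of high over low cells for the 9 tested factors under EPZ5676 (red) and under DMSO (blue), with SE bars; filled points have an adjusted p under 0.05. MITF, SOX10, TFAP2A, LEF1, SOX5 and TFEB lie left of 0 and PAX3, TFE3 and SOX9 right of it. The SOX9 points are fitted values against 0 and 1 counts and are no measure of size.

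Across the 6 groups MITF averaged 239 ± 20.2 CPM in EPZ5676 high, 575 ± 8.74 CPM in EPZ5676 low and 549.6 ± 8.23 CPM in EPZ5676 bulk cells, against 193 ± 11.1 CPM in DMSO high, 596 ± 39.8 CPM in DMSO low and 508 ± 96.7 CPM in DMSO bulk cells (SD, n = 3 each). Its order from the top was DMSO low, EPZ5676 low, EPZ5676 bulk, DMSO bulk, EPZ5676 high and DMSO high. The ranges of the 2 low groups overlapped, as did those of the 2 bulk groups, and those of the 2 high groups overlapped neither each other nor any other group. SOX10 had the same 2 groups at the bottom, and the ranges of the 4 groups above them overlapped each with its neighbour. SOX9 and PAX3 were highest in DMSO high cells, next in EPZ5676 high cells and lowest in EPZ5676 low cells. TFE3 was at 55.6 ± 4.56 CPM in EPZ5676 high and 55.9 ± 1.65 CPM in DMSO high cells, with overlapping ranges, and at 29.5 to 36.8 CPM as means of the other groups.

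The bulk library of DMSO replicate 1 lay between the means of high and low cells for all of the tested factors but SOX5. On the way between the means of DMSO low and DMSO high cells it stood at 49.6% for MITF, 23.6% for SOX10, 18.7% for SOX9, 60.6% for TFE3, 96.1% for PAX3 and 24.6% for TFEB, whose gap did not pass the test. It stood at 8.3% for TFAP2A and 12.5% for LEF1, inside the range of DMSO low cells for both, and at -85.2% for SOX5, on the side away from high cells. It had 396 CPM of MITF, where DMSO bulk replicates 2 and 3 had 561 and 566 CPM. Its SOX9 count was 20, where the others had 5 and 0. Its 8 melanocyte markers summed to 4611 CPM, where DMSO bulk replicates 2 and 3 had 9712 and 9969 CPM, and its 8 fibroblast markers to 409 CPM, where they had 89.3 and 89.1 CPM. The EPZ5676 bulk libraries had 12130 to 12410 CPM of the melanocyte and 114 to 121 CPM of the fibroblast markers.

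EPZ5676 against DMSO asks which of the factors moved with DOT1L inhibition. None of the 9 was called in high cells, where 3.0% of all genes were, in low cells, where 1.04% were, or in bulk cells, where 0.728% were. At an unadjusted p under 0.05 there were 3 in high, 0 in low and 2 in bulk cells, and 16.3%, 12.0% and 12.3% of all genes. DESeq2 called 1 in high cells, SOX10 (adjusted p = 0.0192), and 0 in low and in bulk cells. Over all genes DESeq2 called 317 in low and 290 in bulk cells, and its total in high cells is not reported here. The result depends on how the spread is estimated. The solvent bulk library that stands apart enters the shared estimate though not the high-cell means, and without it MITF, SOX10 and SOX9 were called in high cells, as were 10.7% of all genes. With that library kept and no filter on low counts, the same 3 were called in high cells (adjusted p = 4.04e-05, 2.9e-07 and 0.0315), PAX3 (adjusted p = 0.00246) and SOX9 (0.0175) in bulk cells, and 0 in low cells (edgeR). More of all genes were called with no filter too. There were 948 in high, 440 in bulk and 373 in low cells, where the filtered fit called 543, 132 and 188. A fit of only the high-cell libraries called MITF (adjusted p = 0.0050) and SOX9 (0.0044, edgeR), among 1413 genes called in all.

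In high cells MITF was at 222, 234 and 261 CPM under EPZ5676, against 197, 181 and 202 CPM under DMSO. The difference was 0.31 ± 0.10 (95% interval 0.11 to 0.51, adjusted p = 0.122, edgeR), and 0.31 ± 0.05 without DMSO bulk replicate 1 (adjusted p = 8.95e-05, edgeR). SOX10 differed by 0.36 ± 0.11 (interval 0.15 to 0.58, adjusted p = 0.0878, or 0.0424 without that library, edgeR). SOX9 differed by -0.99 ± 0.49 (interval -1.94 to -0.03, adjusted p = 0.341, or 0.0237 without that library, edgeR). These intervals take a normal quantile of the SE and are narrower than edgeR's test implies. That of SOX9 excludes no difference, while its unadjusted p was 0.0628 (edgeR). The EPZ5676 libraries lay wholly above the DMSO libraries for MITF and SOX10 and wholly below for SOX9 and PAX3; ranges were apart for 24.8% of all genes. PAX3 differed by -0.21 ± 0.12 (adjusted p = 0.396, edgeR) and TFEB by -0.63 ± 0.29 (adjusted p = 0.283, edgeR). For TFE3, LEF1, SOX5 and TFAP2A the intervals ran from -0.21 at the lowest to 0.25 at the highest.

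Placed on the gap between the means of DMSO high and DMSO low cells, EPZ5676 high cells stood 11.4% of the way toward low cells for MITF, 18.4% for SOX10, 31.7% for PAX3 and 50% for SOX9. For TFE3 the figure was 1.1%, for TFAP2A 4.3%, for LEF1 -2.8% and for SOX5 -4.7%. By these means MITF, SOX10, PAX3 and SOX9 lay nearer to DMSO low cells in EPZ5676 high cells, and TFE3, TFAP2A, LEF1 and SOX5 lay within a few percent of the DMSO high level. PAX3 was lower with EPZ5676 by a like amount in low cells (-0.22) and in high cells (-0.21). Its gap between high and low cells was thus nearly the same in both treatments (difference 0.01 ± 0.17). TFEB lay beyond it, at -119.8% of a gap that did not itself pass the test. The summed level of 8 melanocyte markers, SOX10 among them, was 1630 to 1765 CPM in EPZ5676 high cells and 1055 to 1247 CPM in DMSO high cells, and its part in these values was not tested.

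Between EPZ5676 and DMSO the ratio of SOX9 to SOX10 differed by -1.29 in high cells and by -0.15 in low cells, each with an exact permutation p of 0.1, the smallest that 3 against 3 allows. In bulk cells it was -0.69 (exact permutation p = 0.5), and -0.09 without DMSO bulk replicate 1. In low cells SOX9 had 0 or 1 count in each library, so the -0.15 there is in the main a difference in SOX10. The average over the 3 populations, -0.71, and -0.51 without DMSO bulk replicate 1, is therefore given as a value and not as a test of the ratio.

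In low cells MITF had 571, 569 and 585 CPM under EPZ5676, against 641, 582 and 564.5 CPM under DMSO (-0.05 ± 0.10, 95% interval -0.25 to 0.15, adjusted p = 0.905, edgeR). SOX10 differed by 0.11 ± 0.11 (adjusted p = 0.775, edgeR) and PAX3 by -0.22 ± 0.12 (adjusted p = 0.503, edgeR). The EPZ5676 effect on MITF differed between high and low cells by 0.36 ± 0.14, which did not pass over all genes (adjusted p = 0.356, edgeR). Without DMSO bulk replicate 1 that difference was 0.36 ± 0.07 and passed (adjusted p = 0.0020, edgeR), as 5.71% of all genes did. No member was called for this interaction in the filtered fit of all libraries, where 0.320% of all genes (58) were. MITF was called with no filter (adjusted p = 0.00356), where 304 genes were called. It was also called in a fit of only the 4 gated groups (adjusted p = 0.00949, edgeR), where 863 genes were. Of the 9, 2 (MITF and TFEB) had an unadjusted p under 0.05 in the filtered fit of all libraries, as 11.1% of all genes did. DESeq2 called 0 of the 9 and 177 of all genes.

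In bulk cells MITF had 543, 559 and 547 CPM under EPZ5676, against 396, 561 and 566 CPM under DMSO. The difference of 0.11 ± 0.10 (adjusted p = 0.701, edgeR) came to -0.04 without DMSO bulk replicate 1, so its sign was that of 1 library. PAX3 had 20.1, 20.7 and 19.6 CPM under EPZ5676, against 34.7, 21.9 and 24.4 CPM under DMSO (-0.42 ± 0.12, adjusted p = 0.133, edgeR). All EPZ5676 libraries lay below the DMSO ones for PAX3 and TFAP2A, with 15.9% of all genes having ranges apart. For PAX3 the value was -0.20 without DMSO bulk replicate 1 and -0.55 without replicate 2, where it was called (adjusted p = 0.0288, edgeR). SOX9 had 0, 2 and 2 counts under EPZ5676, against 20, 5 and 0 under DMSO (-2.56 ± 1.14, adjusted p = 0.393, edgeR). Its value was -3.21 and called without DMSO bulk replicate 3 (adjusted p = 0.0435, edgeR), and -0.74 and not called without replicate 1.

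**Figure D4:**
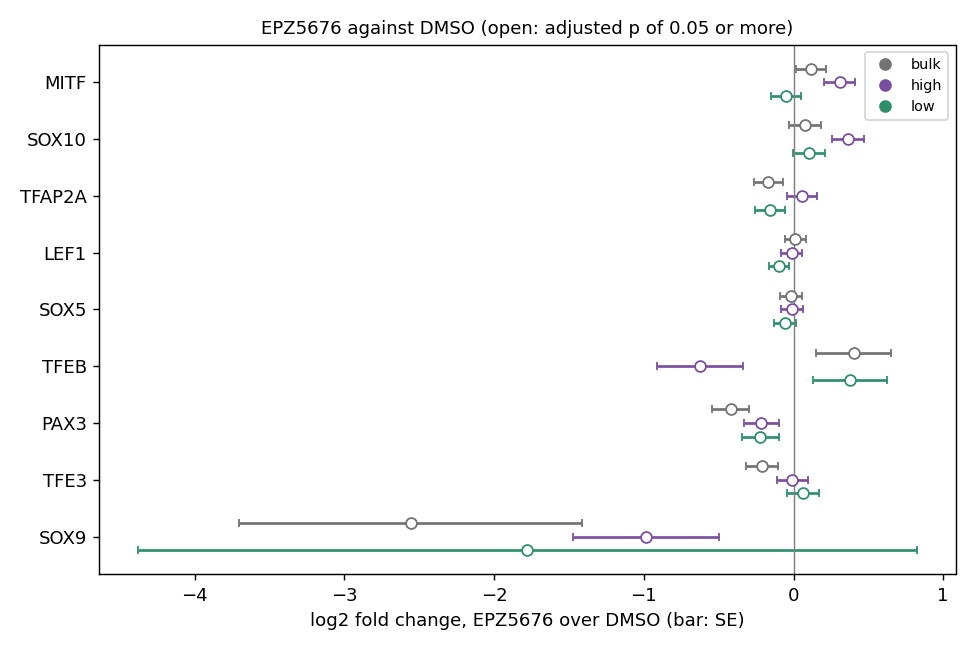
Log2 fold change of EPZ5676 over DMSO for the 9 tested factors in bulk (grey), high (purple) and low cells (green), with SE bars; every point is open, since no adjusted p was under 0.05. In high cells MITF lies at 0.31, SOX10 at 0.36 and SOX9 at -0.99.

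The genes that these factors are known to act on were counted by list, beside the values of all genes given above. Of 28 known MITF targets, 1 was higher and 20 lower in high cells under EPZ5676, and 2 were higher and 22 lower under DMSO, with medians of -1.37 and -1.49. SLC24A5, a melanosome ion exchanger, had 18.8 ± 2.15 CPM in EPZ5676 high cells and 58.0 ± 2.89 CPM in EPZ5676 low cells (-1.63 ± 0.12, adjusted p = 1.58e-08, edgeR). PPARGC1A, a coactivator of mitochondrial biogenesis that MITF switches on, had 6.69 ± 0.52 CPM in EPZ5676 high cells and 25.2 ± 0.58 CPM in EPZ5676 low cells (-1.91 ± 0.15, adjusted p = 6.81e-09, edgeR). GPR143, a melanosome receptor, had 52.8 ± 0.78 CPM in DMSO high cells and 126 ± 5.01 CPM in DMSO low cells (-1.26 ± 0.10, adjusted p = 4.18e-09, edgeR).

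The lysosome genes, known targets of TFEB and TFE3 and in part of MITF, went mostly in the direction of MITF and against TFE3. TFEB went the same way but was called under EPZ5676 only. Of 30 tested, 3 were higher and 21 lower in high cells under EPZ5676, and 4 were higher and 21 lower under DMSO, with medians of -0.37 and -0.51. PSAP, the precursor of saposins that help break down sphingolipids, had 1623 ± 14.5 CPM in EPZ5676 high cells and 2915 ± 12.5 CPM in EPZ5676 low cells (-0.84 ± 0.06, adjusted p = 2.4e-09, edgeR). NPC1, which exports cholesterol from lysosomes, was among the few that were higher, with 158 ± 9.21 CPM in DMSO high cells and 76.4 ± 3.85 CPM in DMSO low cells (1.05 ± 0.09, adjusted p = 8.03e-09, edgeR).

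Of 15 tested genes known to depend on SOX10, 4 were higher and 8 lower in high cells under EPZ5676, and 5 were higher and 9 lower under DMSO; TYR, DCT and ST3GAL6 are also on the MITF list. ERBB3, the neuregulin receptor, had 132 ± 9.80 CPM in DMSO high cells and 313.5 ± 7.34 CPM in DMSO low cells (-1.25 ± 0.07, adjusted p = 8.51e-11, edgeR). MBP, the myelin basic protein gene, went the other way, with 485 ± 13.3 CPM in DMSO high cells and 237 ± 11.7 CPM in DMSO low cells (1.03 ± 0.08, adjusted p = 1.6e-09, edgeR). Of 9 tested cartilage genes known as SOX9 targets, 3 were higher and 3 lower under EPZ5676, and 3 were higher and 2 lower under DMSO. COL9A3, a chain of type IX collagen that is on the SOX10 list too, had 622 ± 65.0 CPM in DMSO high cells and 312 ± 32.5 CPM in DMSO low cells (0.99 ± 0.14, adjusted p = 2.2e-05, edgeR).

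**Figure D5:**
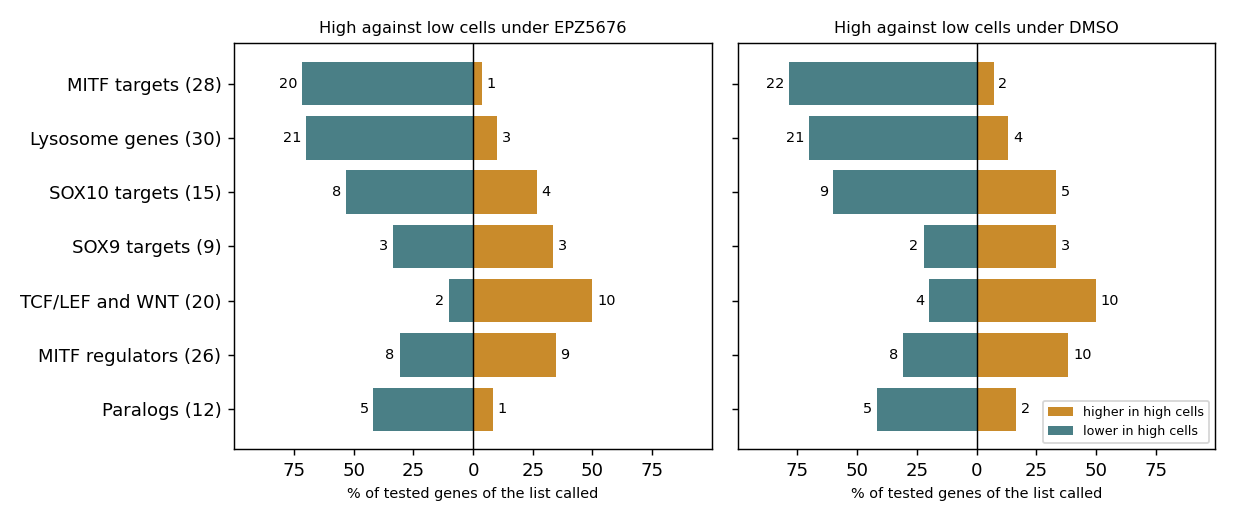
Share of the tested genes of each list called higher (orange, right) or lower (teal, left) in high than in low cells, under EPZ5676 (left panel) and DMSO (right panel), with the number of genes beside each bar and the number tested in brackets. MITF targets and lysosome genes lie mostly on the lower side, with 20 and 21 genes under EPZ5676, and TCF/LEF and WNT genes mostly on the higher side, with 10.

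Genes of the TCF/LEF and WNT pathway did not follow LEF1. Of 20 tested, 10 were higher and 2 lower in high cells under EPZ5676, and 10 were higher and 4 lower under DMSO. AXIN2, a feedback target of beta-catenin, had 8.83 ± 0.70 CPM in DMSO high cells and 2.19 ± 0.60 CPM in DMSO low cells (2.02 ± 0.22, adjusted p = 1.39e-07, edgeR). CTNNB1, which encodes beta-catenin, had 474 ± 8.98 CPM in DMSO high cells and 774 ± 4.23 CPM in DMSO low cells (-0.71 ± 0.08, adjusted p = 8.87e-08, edgeR). BCL9L, a coactivator of beta-catenin, had 115 ± 3.11 CPM in EPZ5676 high cells and 43.5 ± 2.16 CPM in EPZ5676 low cells (1.40 ± 0.16, adjusted p = 4.53e-06, edgeR). Without the 6 libraries with many reads on no feature, only replicate 3 of EPZ5676 high cells was left. The median of the list under EPZ5676 was then 0.42, beside 0.44 with all libraries.

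Among 12 tested relatives of the SOX, PAX and TFAP2 families, 1 was higher and 5 lower in high cells under EPZ5676, and 2 were higher and 5 lower under DMSO. SOX6, a SOXD factor like SOX5, had 33.8 ± 1.26 CPM in EPZ5676 high cells and 134 ± 2.34 CPM in EPZ5676 low cells (-1.99 ± 0.17, adjusted p = 7.27e-07, edgeR), where SOX5 differed by -0.19. TFAP2C, a relative of TFAP2A, had 134 ± 7.22 CPM in DMSO high cells and 17.1 ± 0.63 CPM in DMSO low cells (2.97 ± 0.42, adjusted p = 5.16e-05, edgeR), opposite to TFAP2A. Among 26 regulators of MITF, 9 were higher and 8 lower under EPZ5676, and 10 were higher and 8 lower under DMSO. CHD7, a chromatin remodeller of neural crest development, had 83.7 ± 5.77 CPM in DMSO high cells and 207 ± 7.24 CPM in DMSO low cells (-1.31 ± 0.10, adjusted p = 5.66e-09, edgeR). KDM5B, a histone demethylase, had 44.2 ± 1.70 CPM in EPZ5676 high cells and 92.1 ± 4.29 CPM in EPZ5676 low cells (-1.06 ± 0.09, adjusted p = 1.04e-08, edgeR). ZEB1, a repressor of epithelial and melanocyte genes, had 33.8 ± 2.73 CPM in DMSO high cells and 8.21 ± 0.92 CPM in DMSO low cells (2.04 ± 0.17, adjusted p = 1.09e-08, edgeR). HES1, a NOTCH effector, had 410.3 ± 16.6 CPM in DMSO high cells and 175 ± 7.17 CPM in DMSO low cells (1.23 ± 0.10, adjusted p = 3.82e-08, edgeR).

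With EPZ5676 the target lists moved less. In high cells 5 of 28 MITF targets were higher and 1 lower, 7 of 15 SOX10 targets were higher and 1 lower, and 3 of 30 lysosome genes were higher and 0 lower, beside 1.95% of all genes higher and 1.04% lower. Without DMSO bulk replicate 1 these counts were 14 and 1, 10 and 1, and 10 and 0, beside 5.85% and 4.89% of all genes. Without the 6 libraries with many reads on no feature, no gene of these lists was called, and only replicate 3 of EPZ5676 high cells was left. The medians, which rest on that 1 EPZ5676 library, were then 0.38, 0.48 and 0.16 for the MITF, SOX10 and lysosome lists. With all libraries they were 0.25, 0.35 and 0.09. EDNRB, the endothelin receptor, had 32.8 ± 2.16 CPM in EPZ5676 high cells and 19.4 ± 1.59 CPM in DMSO high cells (0.76 ± 0.12, adjusted p = 0.00104, edgeR). MLPH, a linker of melanosome transport, had 175 ± 4.20 CPM in EPZ5676 high cells and 213 ± 7.26 CPM in DMSO high cells (-0.28 ± 0.05, adjusted p = 0.0033, edgeR). CTSD, the lysosomal protease cathepsin D, was higher with EPZ5676 in all 3 populations, by 0.52 ± 0.06 in high (adjusted p = 2.44e-05), 0.58 ± 0.06 in low (adjusted p = 8.97e-06) and 0.58 ± 0.06 in bulk cells (adjusted p = 1.65e-05, edgeR). Of the MITF regulators, POU3F2, a neural factor that represses or activates MITF by context, was lower in low (-0.44 ± 0.09, adjusted p = 0.00918) and in bulk cells (-0.46 ± 0.08, adjusted p = 0.0123, edgeR). Its call was lost in low cells without EPZ5676 replicate 2 (adjusted p = 0.0936) or 3 (0.0698) or DMSO replicate 2 (0.0573), and in bulk cells without EPZ5676 replicate 1 (0.0502) or 2 (0.0749) or in a fit of only the bulk libraries (0.198, edgeR). POU3F2 was not called in high cells, and its effect there minus that in low cells was 0.51 ± 0.12 (adjusted p = 0.0702, edgeR). The 1 regulator called in high cells was KDM5B, which was lower (-0.33 ± 0.09, adjusted p = 0.0418, edgeR). That call was lost with library size alone (adjusted p = 0.0614, edgeR). Of the 20 TCF/LEF and WNT genes edgeR called 0 in each population (4 in high, 5 in low and 2 in bulk cells at an unadjusted p under 0.05), and of the 12 relatives of the SOX, PAX and TFAP2 families 0 (3, 2 and 1). Without DMSO bulk replicate 1, of the TCF/LEF and WNT genes 1 was higher and 3 lower in high, 2 higher and 1 lower in low and 2 higher in bulk cells. Of the relatives 2 were then higher and 1 lower in high, 1 higher and 1 lower in low and 1 higher in bulk cells. Of all 18784 genes tested in that fit, 2018 were called in high, 968 in low and 550 in bulk cells.

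Over the 18 libraries the log2 level of MITF had a Pearson r of 0.985 with SOX10, 0.934 with TFAP2A, 0.879 with LEF1, 0.749 with SOX5 and 0.746 with TFEB, and of -0.967 with SOX9, -0.965 with TFE3 and -0.874 with PAX3. These describe points that fall into clusters of high and of other cells and share libraries, so no p is given. Among 10439 other genes with a mean of at least 5 CPM, those most like MITF by Pearson r were SOX6 (0.997), GNPTAB (0.997), DIP2B (0.996), ASAH1 (0.996) and SLIT3 (0.996). Those most unlike it were MCL1 (-0.994), KLF6 (-0.994), SYNJ2 (-0.993), CAPN2 (-0.992) and RIN1 (-0.992). TYR was the gene most like SOX10 (0.997), CAVIN3 most like SOX9 (0.986), KIAA1549L most like PAX3 (0.980), PID1 most like TFE3 (0.987) and PTPRJ most like TFAP2A (0.976). The highest values for LEF1 (ZNF503, 0.942), TFEB (AK3, 0.912) and SOX5 (PKNOX2, 0.865) were lower.

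Since the factors moved in 2 opposite blocks, the 250 bases before the annotated start of 5 of them are shown, MITF, TFAP2A and SOX5 from the block lower in high cells and PAX3 and TFE3 from the higher one. Sequences are from RefSeq on GRCh38.p14, matched by symbol for 8 of the 10 genes (all but SOX10 and SOX9), and each is written on the gene's own strand. Capitals mark matches to ACAATG, a SOX motif, on either strand.
MITF, chr3:69739214-69739463 (+): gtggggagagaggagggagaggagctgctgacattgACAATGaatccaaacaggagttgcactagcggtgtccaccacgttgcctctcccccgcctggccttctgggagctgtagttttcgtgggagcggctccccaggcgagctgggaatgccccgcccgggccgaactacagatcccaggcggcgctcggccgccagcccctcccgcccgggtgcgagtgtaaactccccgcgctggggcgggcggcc
TFAP2A, chr6:10419660-10419909 (-): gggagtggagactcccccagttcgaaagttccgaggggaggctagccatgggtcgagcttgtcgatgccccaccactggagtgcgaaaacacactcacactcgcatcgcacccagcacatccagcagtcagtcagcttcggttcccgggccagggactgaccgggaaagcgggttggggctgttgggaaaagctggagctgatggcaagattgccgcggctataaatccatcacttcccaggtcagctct
SOX5, chr12:24562492-24562741 (-): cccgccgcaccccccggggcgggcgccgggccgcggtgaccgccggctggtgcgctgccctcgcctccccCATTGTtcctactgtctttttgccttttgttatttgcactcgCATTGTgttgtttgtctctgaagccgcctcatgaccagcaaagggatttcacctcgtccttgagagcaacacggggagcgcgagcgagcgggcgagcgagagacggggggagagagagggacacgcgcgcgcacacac
PAX3, chr2:222298999-222299248 (-): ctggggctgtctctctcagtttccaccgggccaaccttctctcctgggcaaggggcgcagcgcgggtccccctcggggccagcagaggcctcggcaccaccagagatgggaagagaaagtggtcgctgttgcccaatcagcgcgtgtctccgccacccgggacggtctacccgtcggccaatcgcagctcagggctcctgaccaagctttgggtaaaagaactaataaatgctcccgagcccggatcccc
TFE3, chrX:49043358-49043607 (-): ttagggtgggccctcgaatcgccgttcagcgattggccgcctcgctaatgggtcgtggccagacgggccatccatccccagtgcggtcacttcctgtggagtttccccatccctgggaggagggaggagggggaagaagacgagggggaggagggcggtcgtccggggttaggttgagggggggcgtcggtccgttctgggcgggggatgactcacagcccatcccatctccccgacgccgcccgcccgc

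The windows were searched on both strands for the E-box CACGTG, the M-box core CATGTG, the cAMP response element TGACGTCA, the SOX motifs ACAATG and ACAAAG, the LEF motif ATCAAAG and the TFAP2 motif GCCNNNGGC. Of the 8 windows, MITF had 1 ACAATG match at -214 from the start, SOX5 had 2 on the opposite strand at -180 and -138, and TFEC had 1 at -239. No other motif matched in any of the 8. Among 35116 promoters of the same length, ACAATG occurred in 9.29%, ACAAAG in 13.7%, ATCAAAG in 2.26%, CACGTG in 6.34%, CATGTG in 9.42%, TGACGTCA in 1.65% and GCCNNNGGC in 19.8%. The MITF window belongs to the annotated start of the gene, while the melanocyte form of MITF is known to start at a promoter further downstream that is not shown, and counts per gene do not separate the forms.

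Markers of other cell types were read beside these results. The melanocyte list (8 genes, none at 0) summed to 1630 to 1765 CPM in EPZ5676 high and 13560 to 13720 CPM in EPZ5676 low cells, and to 1055 to 1247 CPM in DMSO high and 10760 to 11250 CPM in DMSO low cells. The fibroblast list (8 genes) summed to 553 to 698 CPM in EPZ5676 high and 99.0 to 102 CPM in EPZ5676 low cells, where COL3A1 was at 0, and to 1070 to 1359 CPM in DMSO high and 72.4 to 76.9 CPM in DMSO low cells. Most of the sum was COL1A1 in high cells, at 433 CPM under EPZ5676 and 930.2 CPM under DMSO, and LUM in low cells, at 89.2 CPM under EPZ5676 and 67.8 CPM under DMSO. Of the 7 fibroblast markers tested, 6 were called higher and 1 lower in high cells in each treatment (edgeR). PDGFRB, PDGFRA and FAP had 60.4, 33.9 and 26.8 CPM in EPZ5676 high cells, against 2.19, 0.98 and 0.194 CPM in EPZ5676 low cells. They had 101, 57.1 and 29.9 CPM in DMSO high cells, against 1.81, 0.871 and 0.0816 CPM in DMSO low cells. In high cells LUM was at 52.7 CPM under EPZ5676 and 31.7 CPM under DMSO, below those low-cell means, and THY1 had at most 0.13 CPM as a group mean. The part of these markers in the SOX9, PAX3 and TFE3 differences was not tested. Leukocyte markers summed to at most 2.94 CPM in a library, endothelial markers to at most 14.0 CPM, with PECAM1 at 0 in all groups, and keratinocyte markers to at most 44.2 CPM, nearly all of it KRT10, with KRT1 at 0 in all groups.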

How the data were processed

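Raw read counts per Ensembl gene in 18 libraries were made and deposited by the authors, with STAR, HTSeq and hg19 named in the submitters' processing notes; versions, annotation and strand setting are not given in the sources used here. Between 12.8% and 28.65% of a library's reads fell on no feature and between 6.07% and 7.71% were ambiguous; the 5 summary lines were left out. Of 63677 genes, 52181 were named from a current table, 345 from GENCODE 29 alone and 11151 not. In R 4.3.3, edgeR 4.0.16 was used with filterByExpr, TMM factors and a robust quasi-likelihood fit of 6 group means, after a test on simulated data. Alternatives were DESeq2 1.42.0, RLE factors, library size alone, no filter, a minimum mean of 5 CPM, estimation that is not robust, a block for replicate numbers, a fit of the compared groups alone, the no-feature share as covariate, and leaving out libraries. Leaving DMSO bulk replicate 1 out together with the no-feature covariate, and the list counts without libraries, were added after seeing the data. Intervals are 95%, and a count of 0 was set to 3 counts over the group. Intervals of edgeR differences take a normal quantile of the SE, so they are narrower than the quasi-likelihood test implies. Exons that overlap were read from GENCODE 29. The 10 genes and all lists were chosen with earlier results of these data known. Named were all 10 genes, up to 4 genes per list and comparison with the smallest p, of which some are described, and the 5 or 3 genes of highest (for MITF also lowest) correlation. Results for some listed genes are not reported here.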

Additional observations from a re-analysis of the deposited data

Results flagged for a closer look

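Among the genes of the target lists, MBP, MLPH and CAPN3 responded to EPZ5676 differently in high and in low cells by the test of the difference itself. MBP, the myelin basic protein gene and a SOX10 target, had 325 ± 15.5 CPM in EPZ5676 high cells and 485 ± 13.3 CPM in DMSO high cells, and 331 ± 3.05 CPM in EPZ5676 low cells and 237 ± 11.7 CPM in DMSO low cells (SD, n = 3 each). The effect in high cells minus that in low cells was -1.06 ± 0.11 on the log2 scale (adjusted p = 7.19e-05, edgeR). MBP was at a like level in high and low cells under EPZ5676, and higher in high cells under DMSO. MLPH, a melanosome transport gene on the MITF list, differed by -0.44 ± 0.07 (adjusted p = 0.00683, edgeR). CAPN3, a calpain protease gene on the MITF list, differed by 2.47 ± 0.48 (adjusted p = 0.0254, edgeR), from a level of 0.925 ± 0.22 CPM in EPZ5676 high and 0.180 ± 0.11 CPM in DMSO high cells. In DMSO high libraries 3 counts amount to 0.145 to 0.208 CPM, so CAPN3 was near the floor there and the size is uncertain. DMSO low cells had 4.71 ± 0.30 CPM of it. MBP and MLPH were called with any 1 library left out. CAPN3 was not called without any 1 of EPZ5676 high replicates 1 and 3, DMSO high replicates 1 and 3, EPZ5676 low replicates 1 and 2 and DMSO low replicates 2 and 3 (adjusted p from 0.0574 to 0.0943, edgeR). Without the 6 libraries with over 16% of reads on no feature, only replicate 3 of EPZ5676 high cells was left. None of the 3 was then called and the differences were -1.0, -0.49 and 2.23 for MBP, MLPH and CAPN3.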

How the results depend on the processing

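Between high and low cells MITF, SOX10, SOX9, PAX3, TFE3 and TFAP2A kept direction and call in both treatments under every alternative run, TFEB did so under EPZ5676, and LEF1 and SOX5 kept direction. Besides the cases in the text, SOX5 under EPZ5676 was not called with no filter (adjusted p = 0.0983) or with a mean of at least 5 CPM (adjusted p = 0.0508, edgeR). Leaving out 1 library at a time gave 8033 to 9496 genes called for high against low under EPZ5676 and 9474 to 10798 under DMSO. For EPZ5676 against DMSO it gave 200 to 2018 genes in high (0 to 3 factors), 60 to 968 in low and 39 to 550 in bulk cells (0 to 1 factor), and 14 to 1072 for the interaction (0 to 1 factor). The highest counts of genes were those without DMSO bulk replicate 1, and the 1 factor in bulk cells came without DMSO replicate 2 (PAX3) or 3 (SOX9). The fit of all libraries called 543, 188, 132 and 58 genes. In the order high, low, bulk and interaction, no filter called 948, 373, 440 and 304 genes (3 factors in high, 2 in bulk, 1 in the interaction). A fit of only the groups compared called 1413, 1028, 2 and 863 (2 factors in high, 1 in the interaction), and without the 6 libraries with over 16% of reads on no feature it was 5, 7, 0 and 0, with 4176 for high against low under EPZ5676; the fewer libraries leave less to estimate the spread. DESeq2 called 317 in low, 290 in bulk and 177 in the interaction, and 1 factor in high cells; estimation that was not robust called 35 in the interaction, and the no-feature share as covariate 50 in bulk cells. Without DMSO bulk replicate 1, a replicate block gave 2030, 982, 513 and 1090 genes (3 factors in high, 1 in the interaction) and the no-feature covariate, chosen after seeing the data, 2009, 903, 418 and 1024 (2 and 1). Correlations of deviations between same-numbered libraries ran from -0.34 to 0.296. With 3 libraries in a group, these cannot tell whether same-numbered libraries shared a culture. With all libraries the replicate block called 525, 173, 129 and 49 genes and 0 factors. For these counts the cause was not tested.

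Signs turned only for values that were not called. In high cells TFE3, LEF1 and SOX5 came to 0.014, 0.0095 and 0.012 with library size alone and to 0.021, 0.016 and 0.019 with no filter, and LEF1 and SOX5 to 0.14 and 0.11 without the 6 libraries. In bulk cells LEF1 came to -0.0084 with the covariate and -0.0093 without the 6 libraries. There, without DMSO bulk replicate 1, MITF, SOX10, LEF1 and SOX5 came to -0.038, -0.026, -0.042 and 0.015 with the block, and MITF, SOX10 and LEF1 to -0.023, -0.056 and -0.081 with the covariate. In the interaction PAX3 came to -0.0055 with a mean of at least 5 CPM and -0.065 without the 6 libraries, and SOX9 to -0.13 by DESeq2. With 1 library left out, values ran from -0.0377 to 0.20 for MITF, -0.0285 to 0.14 for SOX10, -0.0615 to 0.0586 for LEF1 and -0.0547 to 0.0468 for SOX5 in bulk cells. In high cells they ran from -0.0575 to 0.0574 for TFE3, -0.0514 to 0.0528 for LEF1, -0.0668 to 0.0631 for SOX5 and -0.0739 to 0.20 for TFAP2A, and in low cells from -0.0888 to 0.0036 for MITF and -0.015 to 0.15 for TFE3. In the interaction they ran from -0.0643 to 0.0805 for PAX3, -0.0107 to 0.12 for SOX5, -0.15 to 0.0069 for TFE3 and -0.99 to 1.21 for SOX9. The SOX9 to SOX10 ratio differed by 4.48 to 4.63 between high and low cells and by -0.86 to -0.51 between EPZ5676 and DMSO with 1 library left out, and by 6.66 and -0.97 with a pseudocount of 0.1 and 2.94 and -0.50 with one of 2; with a replicate block its exact permutation p was 0.0313 for high against low, the smallest possible. At 14 to 79 counts per library of gated cells, depth limits what TFEB can show, and SOX9 was at or under the floor of 3 counts in every low-cell library.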
